A study of Rattus norvegicus with 18 samples.

Results

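The genes described here are 7 members of the interferon response in the rat line H9C2: the interferon regulatory factors Irf1, Irf3, Irf7 and Irf9, the transcription factor Stat2, and the interferon-inducible genes Gbp2 and Isg15. They were chosen by symbol, with no measured value in the rule, from the 32545 genes of the expression table, and each symbol stood on 1 row. H9C2 is a clonal line derived from embryonic rat heart, labelled here as myocardium. Poly(A) RNA was sequenced in 18 libraries, 3 in each of 6 groups. NC received no treatment. ES10 and ES50 received 10 or 50 electric pulses of 100 microseconds at 1500 V/cm. P received PE at 50 micromoles per litre for 48 h, and P-ES10 and P-ES50 received the same PE and then 10 or 50 of the same pulses. The labels name PE by these letters alone and give no time from the pulses to harvest. The labels do not say whether the 3 libraries of a group came from separate cultures, so each p-value measures the spread between these libraries, which may be technical.

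Cells make type I interferon after a sensor of foreign or misplaced nucleic acid activates the kinases that phosphorylate IRF3. The secreted interferon binds a receptor whose kinases phosphorylate STAT2. STAT2 joins IRF9 in a complex that binds the interferon-stimulated response element (ISRE) in the promoters of target genes. Interferon gamma acts mainly through a different element, the gamma-activated site (GAS). IRF7 is itself induced by interferon and amplifies further interferon production, and IRF1 is an early target that drives many of the same genes. GBP2 is a guanylate-binding GTPase of cell-intrinsic defence, and ISG15 is a ubiquitin-like protein that is conjugated to other proteins.

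The promoters of 6 of the 7 genes were found in a RefSeq table (build GRCr8), and 4 of them held the core of 1 of these elements in the 300 bases from 250 before to 50 after the start site. Their 150 bases before the start site are shown, 5′ to 3′ on the gene's own strand, because they place the matched element of each gene. Capitals mark the match.
Irf1, chr10:38417785-38417934, plus strand: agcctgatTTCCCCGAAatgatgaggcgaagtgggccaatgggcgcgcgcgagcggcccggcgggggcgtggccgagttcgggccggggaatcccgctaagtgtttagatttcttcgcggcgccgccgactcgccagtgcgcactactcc
Irf7, chr1:205800024-205800173, minus strand: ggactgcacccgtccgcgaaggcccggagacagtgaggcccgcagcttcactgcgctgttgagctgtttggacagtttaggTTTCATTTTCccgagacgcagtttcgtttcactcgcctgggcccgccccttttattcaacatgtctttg
Irf9, chr15:33065686-33065835, plus strand: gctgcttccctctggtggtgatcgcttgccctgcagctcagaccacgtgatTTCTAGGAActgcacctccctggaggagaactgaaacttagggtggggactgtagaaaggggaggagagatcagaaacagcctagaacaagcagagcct
Gbp2, chr2:234005577-234005726, plus strand: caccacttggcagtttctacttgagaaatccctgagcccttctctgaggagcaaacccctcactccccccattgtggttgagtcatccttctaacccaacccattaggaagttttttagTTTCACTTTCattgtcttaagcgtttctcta
The ISRE core was searched as GAAANNGAAA on both strands. It matched Irf7, from 69 to 60 bases before the start, and Gbp2, from 31 to 22 bases before it, in both genes on the strand opposite to the gene. The same core stood in 1312 of 33469 promoters of this length, or 3.92%. The GAS core was searched as TTCNNNGAA, which reads alike on both strands. It matched Irf1, from 142 to 134 bases before the start, and Irf9, from 99 to 91 bases before it, and stood in 2970 of the 33469 promoters, or 8.87%. Irf3 and Stat2 held neither run of letters in this window. A match of letters is a description and not a measured binding site.

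The values are FPKM, which is reads per length of gene and per library term, computed by the authors. Libraries held 14004929 to 17247201 reads, but the share from the 37 mitochondrial genes was 92.1% ± 0.728 (SD, n = 3) in ES50 and 48.6% ± 1.66 in P-ES50, against 5.41% to 13.97% in the libraries of the other 4 groups. ES50 libraries therefore held only 1230554 to 1466851 reads on nuclear genes, and the other groups 7813779 to 14665855. The deposited values set the median gene nearly equal between libraries, so every level and change given for ES50 and P-ES50 is relative to the nuclear transcriptome and not to all poly(A) RNA. In RNA from bulk cultures, fewer cells expressing a gene and less of its RNA per cell cannot be told apart. Of 10 cardiomyocyte markers 3 passed the filter on low values, namely Tnnt2, Pln and Tnni3, at 12.1, 1.64 and 2.18 FPKM in NC, while Myh6, Myh7, Actc1, Ryr2 and Nppa were at 0.123 FPKM or less. Of 7 skeletal myoblast markers 4 passed, with Myod1 at 32.0, Cdh15 at 85.4 and Des at 9.10 FPKM in NC, while Chrna1 was at 0.216, Myf5 at 0.0071 and Myf6 was listed at 0. Of 7 macrophage markers 3 passed that filter, namely Cd14, Cd68 and Csf1r, at 6.08, 0.934 and 0.669 FPKM in NC. Ptprc, Adgre1 and Tyrobp had no reads, and of 5 lymphocyte markers 0 passed. From NC to ES50 the summed level went from 15.4 to 17.2 FPKM to 47.6 to 56.9 FPKM for the cardiomyocyte markers, and from 127 to 128 FPKM to 88.7 to 97.4 FPKM for the myoblast markers. Single markers of both lists went in opposite directions. In ES50 Tnnt2 stood at 40.2 and Pln at 12.3 FPKM, both higher than in NC, and Tnni3 lower, at 0.512. Cdh15 was lower in ES50, at 14.6 FPKM, while Myod1, at 57.5, Des, at 19.1, and Myog, at 2.44 against 0.951 in NC, were higher. The summed level went from 2407 to 2494 FPKM to 554 to 580 FPKM for the 7 fibroblast markers, and from 7.17 to 8.31 FPKM to 2.12 to 4.25 FPKM for the macrophage markers. Their part in the results was not tested.

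**Figure D1:**
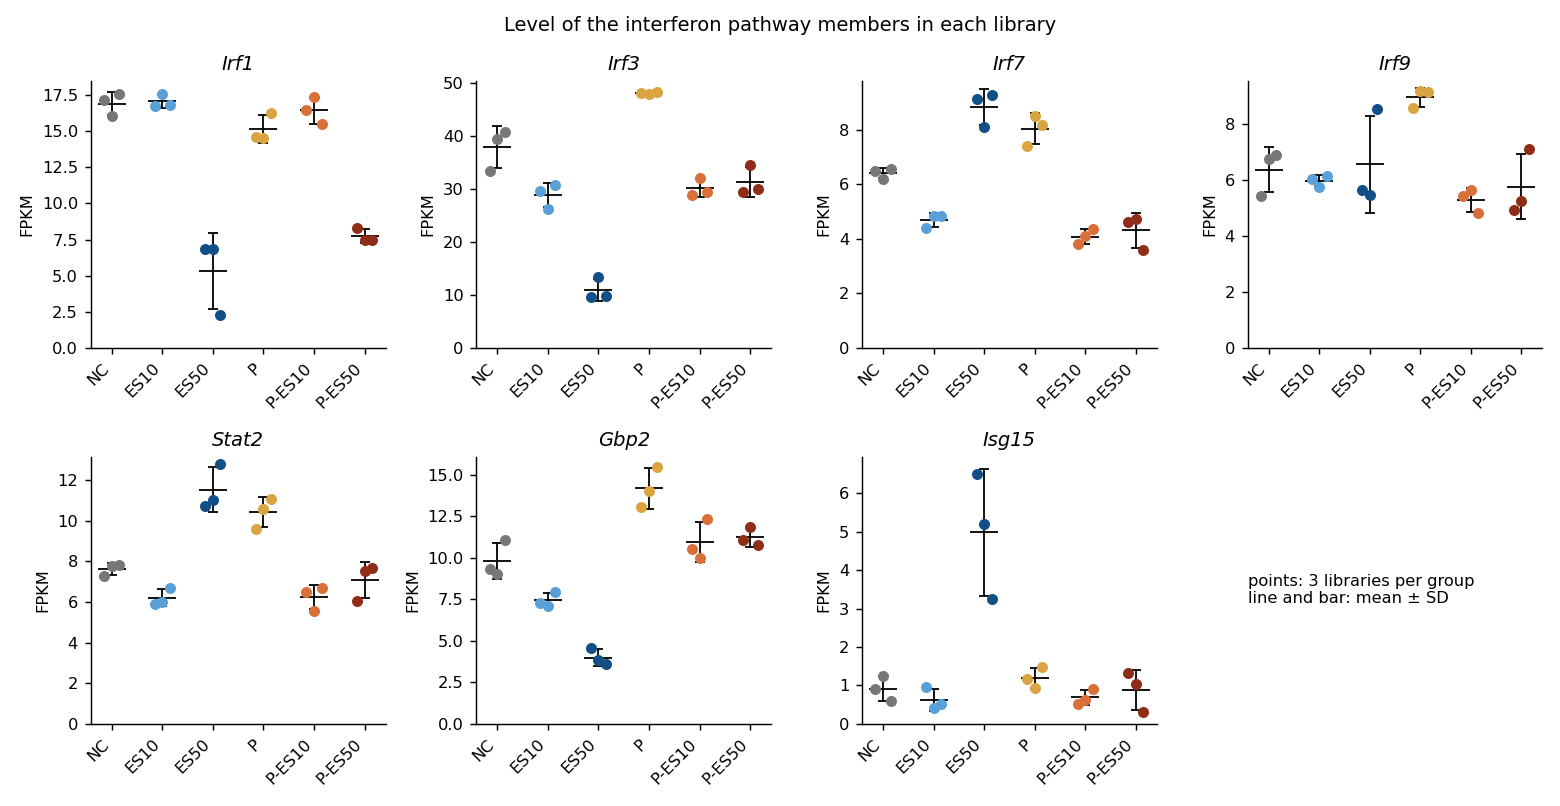
FPKM of each of the 7 genes (1 panel per gene, vertical axis from 0) in every library of the 6 groups. Points are libraries, and the bar is the group mean with its SD (n = 3). P stands highest for Irf3, Irf9 and Gbp2, and ES50 stands lowest for Irf1, Irf3 and Gbp2 and highest for Isg15.

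Irf3 had the highest mean FPKM of the 7 genes in every group but ES50, where Stat2, at 11.5 ± 1.11 (SD, n = 3), stood beside Irf3, at 10.9 ± 2.15. IRF3 is made constitutively and is switched on by phosphorylation rather than by new transcription. Its FPKM was 33.4, 39.5 and 40.7 in the 3 libraries of NC, 29.7, 26.3 and 30.7 in ES10, and 9.67, 13.4 and 9.73 in ES50. With PE it was 48.1, 47.8 and 48.3 in P, 28.9, 32.1 and 29.3 in P-ES10, and 29.4, 34.6 and 30.0 in P-ES50. Every P library lay above every other library and every ES50 library below every other. The libraries of NC, P-ES50, P-ES10 and ES10, in that order of means, overlapped from each group to the next.

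Irf1 was lower in both groups that received 50 pulses than in the other 4. Its FPKM was 17.1, 16.0 and 17.6 in NC, 16.8, 17.6 and 16.8 in ES10, and 6.82, 6.87 and 2.29 in ES50. With PE it was 14.6, 14.5 and 16.3 in P, 16.5, 17.3 and 15.5 in P-ES10, and 8.29, 7.50 and 7.46 in P-ES50. ES10, NC, P-ES10 and P overlapped in that order, P-ES50 lay below all of them, and ES50 lay below P-ES50. ES50 replicate 3, at 2.29 FPKM, rested on 11 reads, against 31 and 37 in the other two.

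Irf7 had its higher levels in ES50 and P and its lower levels in ES10 and in both groups that received PE and pulses. Its FPKM was 6.48, 6.21 and 6.55 in NC, 4.40, 4.82 and 4.83 in ES10, and 9.13, 8.09 and 9.28 in ES50. With PE it was 7.41, 8.51 and 8.17 in P, 3.80, 4.09 and 4.35 in P-ES10, and 4.62, 4.73 and 3.58 in P-ES50. ES50 and P overlapped at the top, NC stood alone between, and ES10, P-ES50 and P-ES10 overlapped at the bottom.

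Irf9 and Stat2, whose products are part of the complex that binds the ISRE, both had high levels in P. Irf9 stood at 5.43, 6.74 and 6.88 FPKM in NC, 6.04, 5.73 and 6.14 in ES10, and 5.64, 5.47 and 8.52 in ES50. With PE it stood at 8.55, 9.17 and 9.11 in P, 5.43, 5.63 and 4.80 in P-ES10, and 4.92, 5.25 and 7.09 in P-ES50. The P libraries of Irf9 lay above all others, by a narrow margin over ES50 replicate 3, and the other 5 groups overlapped from each to the next. Stat2 stood at 7.29, 7.79 and 7.82 FPKM in NC, 5.92, 6.01 and 6.71 in ES10, and 10.7, 11.0 and 12.8 in ES50. With PE it stood at 9.61, 10.6 and 11.1 in P, 6.49, 5.57 and 6.69 in P-ES10, and 6.07, 7.54 and 7.68 in P-ES50. For Stat2, ES50 and P overlapped above NC, and NC, P-ES50, P-ES10 and ES10 overlapped in that order.

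The target genes Gbp2 and Isg15 differed from each other in level and in where they were highest. Gbp2 stood at 9.31, 9.04 and 11.1 FPKM in NC, 7.28, 7.10 and 7.92 in ES10, and 4.54, 3.83 and 3.60 in ES50. With PE it stood at 13.0, 14.0 and 15.5 in P, 10.5, 9.99 and 12.3 in P-ES10, and 11.0, 11.9 and 10.8 in P-ES50. P lay above all other groups of Gbp2, the groups P-ES50, P-ES10 and NC overlapped, ES10 lay below them, and ES50 lay lowest. Isg15 was near 1 FPKM outside ES50, at 0.905, 1.23 and 0.593 in NC, 0.952, 0.398 and 0.510 in ES10, and 6.51, 5.20 and 3.24 in ES50. With PE it stood at 1.16, 0.938 and 1.46 in P, 0.524, 0.617 and 0.910 in P-ES10, and 1.31, 1.03 and 0.304 in P-ES50. All 3 ES50 libraries of Isg15 lay above every other library, and the other 5 groups overlapped. A low FPKM rests on few reads here, since Isg15 had 6 to 48 reads in a library over all groups.

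**Figure D2:**
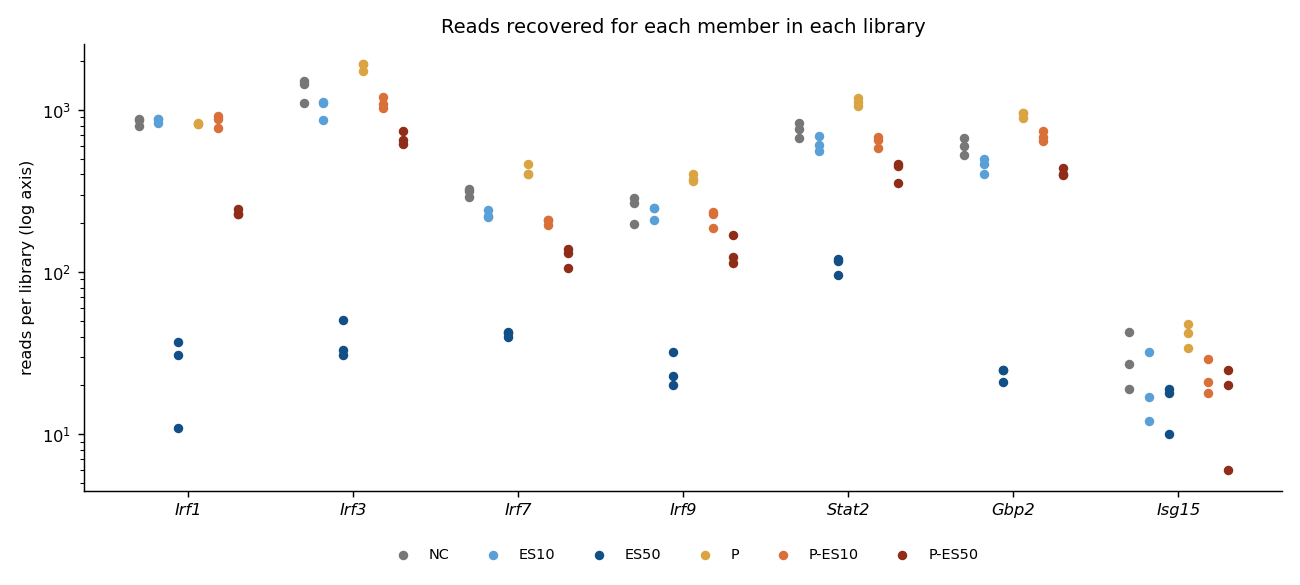
Reads recovered for each gene in each library, on a log axis, coloured by group. ES50 libraries had 11 to 37 reads for Irf1 and 20 to 32 for Irf9, and Isg15 had 6 to 48 reads over all groups.

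Stat2 and Gbp2 rose with PE in the absence of pulses. P was compared with NC, which asks how PE alone changed each gene; changes are log2 fold changes of FPKM + 1 from limma, and a gene passed at an adjusted p under 0.05. Gbp2 rose from 9.80 ± 1.10 (SD, n = 3) to 14.2 ± 1.24 FPKM, a change of 0.49 ± 0.10 (SE, adjusted p = 0.00483, limma). Stat2 rose from 7.63 ± 0.297 to 10.4 ± 0.749 FPKM, a change of 0.40 ± 0.09 (adjusted p = 0.0137, limma). Irf3, Irf7 and Irf9 had changes of 0.34, 0.28 and 0.44 that did not pass (adjusted p = 0.0603, 0.0594 and 0.0643, limma), although all P libraries of these genes lay above all NC libraries. Irf1, at -0.15, and Isg15, at 0.20, did not pass either. So 2 of 7 genes rose and 0 fell, with a median change of 0.34 against 0.00 over all 11917 tested genes, of which 9.53% were called, 4.72% as higher and 4.81% as lower.
The call for Stat2 depended on single libraries. Without NC replicate 1, P replicate 2 or P replicate 3, Gbp2 alone was called. With the ES50 libraries left out of the fit, 5 genes were called higher, namely Irf3, Irf7, Irf9, Stat2 and Gbp2. In that fit 1641 of 11917 tested genes were called higher and 1559 lower.

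Cells that had received 10 pulses without PE had less Irf3, Irf7 and Gbp2 RNA than untreated cells. ES10 was compared with NC. Irf7 fell by 0.38 ± 0.09 on the log2 scale (SE, adjusted p = 0.0136, limma), from 6.41 ± 0.181 (SD, n = 3) to 4.68 ± 0.248 FPKM. Irf3 fell by 0.38 ± 0.11 (adjusted p = 0.0411, limma), from 37.9 ± 3.90 to 28.9 ± 2.32 FPKM, and Gbp2 fell by 0.35 ± 0.10 (adjusted p = 0.0348, limma), from 9.80 ± 1.10 to 7.44 ± 0.431 FPKM. Stat2, at -0.26 (adjusted p = 0.113, limma), Isg15, at -0.24, Irf9, at -0.07, and Irf1, at 0.01, did not pass. So 0 of 7 genes rose and 3 fell, with a median of -0.26 against 0.02 over all tested genes, of which 8.57% were called, 6.36% as higher and 2.21% as lower.
Over 16 alternatives the call for Irf3 was lost in 8, that for Gbp2 in 7 and that for Irf7 in 4. Without NC replicate 3, or without ES10 replicate 1, 0 of the 7 were called (limma), without NC replicate 1 only Irf3 was, without NC replicate 2 Irf7 and Gbp2 were, and without ES10 replicate 2 or ES10 replicate 3 only Irf7 was. In 5 alternatives, among them voom and the fit without the ES50 libraries, Stat2 was called lower as well.

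After PE, 5 of the 7 genes fell with 10 pulses. P-ES10 was compared with P, which asks what 10 pulses did in cells already exposed to PE. Irf7 fell by 0.83 ± 0.09 (SE, adjusted p = 7.59e-06, limma), from 8.03 ± 0.565 (SD, n = 3) to 4.08 ± 0.274 FPKM. Irf3 fell by 0.66 ± 0.11 (adjusted p = 3.92e-04, limma), from 48.1 ± 0.260 to 30.1 ± 1.73 FPKM. The partners in the ISRE-binding complex both fell, Irf9 by 0.66 ± 0.14 (adjusted p = 0.00311, limma), from 8.94 ± 0.340 to 5.29 ± 0.434 FPKM, and Stat2 by 0.66 ± 0.09 (adjusted p = 1.2e-04, limma), from 10.4 ± 0.749 to 6.25 ± 0.595 FPKM. Gbp2 fell by 0.35 ± 0.10 (adjusted p = 0.0175, limma), from 14.2 ± 1.24 to 10.9 ± 1.23 FPKM. Irf1, at 0.11, and Isg15, at -0.38 (adjusted p = 0.291, limma), did not pass. So 0 rose and 5 fell, with a median of -0.66 against 0 over all tested genes, of which 22.9% were called, 13.2% as higher and 9.66% as lower.
The call for Gbp2 was lost without P replicate 3, P-ES10 replicate 1 or P-ES10 replicate 2, and no call for another gene was lost by leaving out 1 library.

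After PE, 6 of the 7 genes fell with 50 pulses, and these included Irf1. P-ES50 was compared with P. Irf1 fell by 0.88 ± 0.23 (SE, adjusted p = 0.00862, limma), from 15.1 ± 0.992 (SD, n = 3) to 7.75 ± 0.470 FPKM. Irf7 fell by 0.77 ± 0.09 (adjusted p = 1.35e-05, limma) to 4.31 ± 0.633 FPKM, and Irf3 fell by 0.61 ± 0.11 (adjusted p = 6.45e-04, limma) to 31.3 ± 2.80 FPKM. Irf9 fell by 0.57 ± 0.14 (adjusted p = 0.0069, limma) to 5.75 ± 1.17 FPKM, Stat2 fell by 0.50 ± 0.09 (adjusted p = 9.93e-04, limma) to 7.10 ± 0.895 FPKM, and Gbp2 fell by 0.31 ± 0.10 (adjusted p = 0.026, limma) to 11.2 ± 0.565 FPKM. Isg15, at -0.25 (adjusted p = 0.479, limma), did not pass. So 0 rose and 6 fell, with a median of -0.57 against -0.01 over all tested genes, of which 28.3% were called, 14.1% as higher and 14.2% as lower. The comparisons of P-ES10 and of P-ES50 with P share the P libraries.
The direct comparison of P-ES50 with P-ES10 separated Irf1 alone, which fell by 0.99 ± 0.23 (SE, adjusted p = 0.00471, limma). The other 6 genes differed by 0.04 to 0.16, and 23.4% of all tested genes were called, 10.5% as higher and 12.9% as lower. With values scaled to the same total of reads, where the mitochondrial share counts, all 7 were lower in P-ES50 and 6 were called. On that scaling 10403 of 11917 tested genes were called, 10348 of them lower, and the median gene moved by -0.70. The call for Gbp2 in P-ES50 against P was lost without P replicate 2, P replicate 3, P-ES50 replicate 1 or P-ES50 replicate 3.

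**Figure D3:**
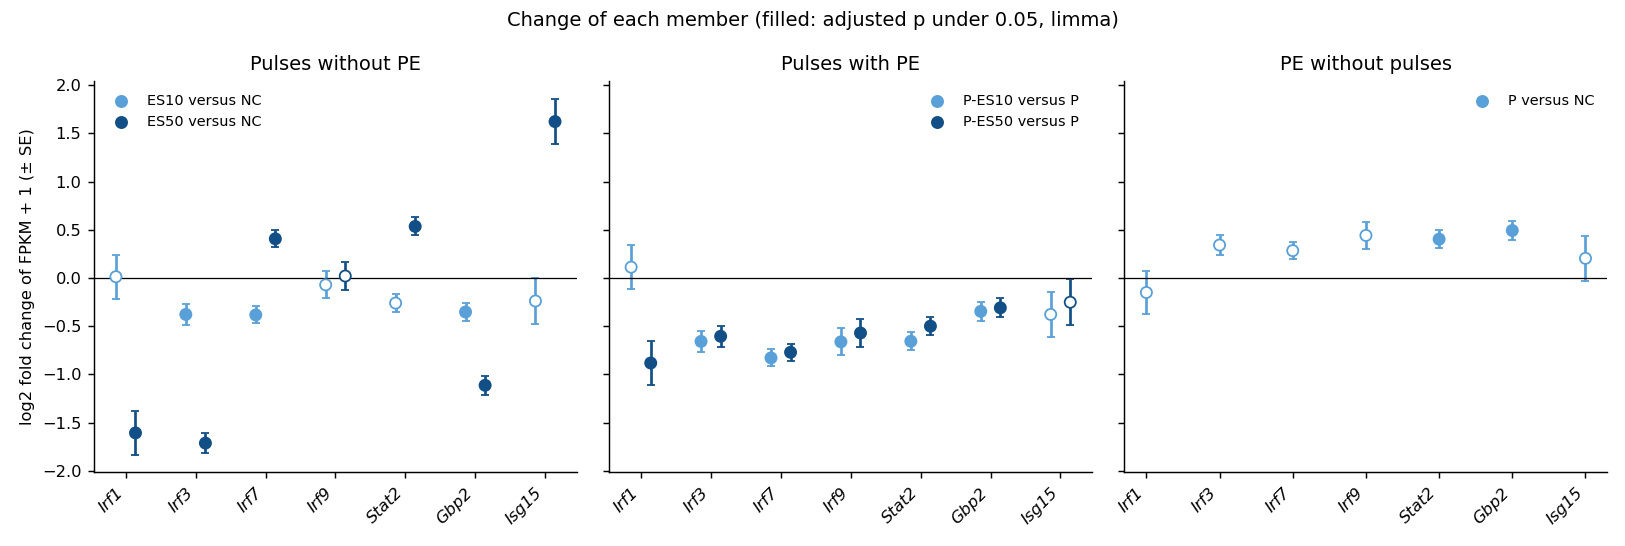
Log2 fold change of FPKM + 1 (± SE) of each gene in 5 comparisons: pulses without PE (left), pulses after PE (middle) and PE alone (right). Filled points passed an adjusted p under 0.05 in limma. With PE the 5 genes Irf3, Irf7, Irf9, Stat2 and Gbp2 lie below 0 after 10 and after 50 pulses, while without PE the genes after 50 pulses spread from -1.71 for Irf3 to 1.62 for Isg15.

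Without PE, 50 pulses changed 6 of the 7 genes, 3 in each direction relative to the median gene. ES50 was compared with NC. Irf3 fell by 1.71 ± 0.11 (SE, adjusted p = 9.74e-10, limma), from 37.9 ± 3.90 (SD, n = 3) to 10.9 ± 2.15 FPKM. Irf1 fell by 1.61 ± 0.23 (adjusted p = 1.09e-05, limma), from 16.9 ± 0.784 to 5.33 ± 2.63 FPKM, and Gbp2 fell by 1.11 ± 0.10 (adjusted p = 4.72e-08, limma), from 9.80 ± 1.10 to 3.99 ± 0.489 FPKM. Isg15 rose by 1.62 ± 0.24 (adjusted p = 1.57e-05, limma), from 0.911 ± 0.320 to 4.99 ± 1.65 FPKM, Stat2 by 0.53 ± 0.09 (adjusted p = 1.05e-04, limma) to 11.5 ± 1.11 FPKM, and Irf7 by 0.41 ± 0.09 (adjusted p = 7.42e-04, limma) to 8.83 ± 0.649 FPKM, each as deposited but not on total reads, as given next. Irf9, at 0.02 ± 0.14 (adjusted p = 0.908, limma), did not pass. The median over the 7 was 0.02 against -0.13 over all tested genes, of which 72% were called, 31.9% as higher and 40.1% as lower, so a call was the usual outcome for a gene in this comparison.
The direction of the 3 rises depends on the scaling. With values scaled to the same total of reads, 0.285% of all tested genes were called higher and 96.3% lower. The median gene then moved by -2.43, and Isg15 had a change of -0.54, Irf7 of -2.36 and Stat2 of -2.37. This scaling multiplies all values of a library by the same factor, so ratios between its genes stay as deposited. The log2(FPKM + 1) scale understates falls of low genes, and Isg15, at 0.911 FPKM in NC, could not fall as far as the median gene. The places of Irf7, Stat2 and Isg15 relative to the median gene are therefore not read from total reads. In reads, Isg15 had 19, 18 and 10 in the ES50 libraries, a sum of 47 (95% Poisson interval 34.5 to 62.5), and 27, 43 and 19 in NC, a sum of 89 (71.5 to 110), and these intervals cover counting error only. The rise in FPKM therefore stands for fewer Isg15 reads from far fewer nuclear reads. Without ES50 replicate 3, the change of Irf1 was -1.19. With all libraries thinned to the nuclear depth of the shallowest ES50 library, Irf7 passed in 8 of 20 random draws.
ES50 against ES10 gave the same 3 genes lower and the same 3 higher, with 74.3% of all tested genes called, 33% as higher and 41.3% as lower. Irf1 fell by 1.62, Irf3 by 1.33 and Gbp2 by 0.76 on the log2 scale, and Irf7, Stat2 and Isg15 had changes of 0.79, 0.79 and 1.86, which became -1.92, -2.06 and -0.21 on scaling by total reads.

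**Figure D4:**
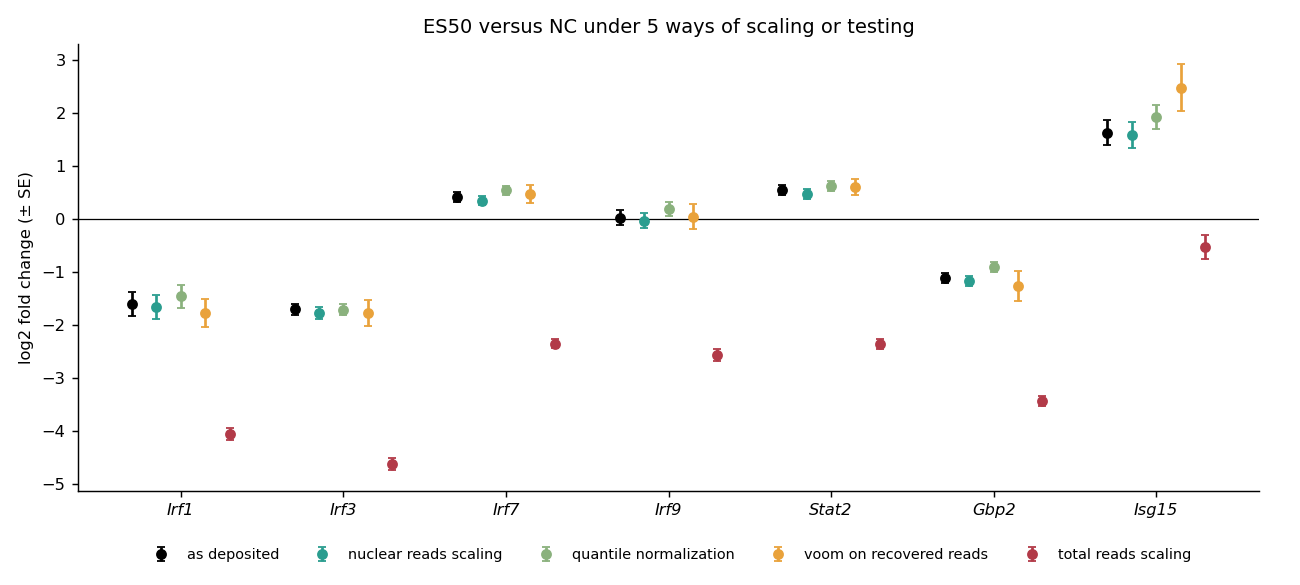
Log2 fold change (± SE) of each gene in ES50 against NC with values as deposited, scaled to equal nuclear reads, quantile normalized, tested with voom on recovered reads, and scaled to equal total reads. Irf1, Irf3 and Gbp2 lie below 0 in all 5, while Irf7, Stat2 and Isg15 lie above 0 in 4 and at -2.36, -2.37 and -0.54 on total reads.

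The response to 50 pulses differed with PE for 6 of the 7 genes. The test is the interaction, which is the change after pulses with PE minus that without. It was positive for Irf3, at 1.11 ± 0.15 (SE, adjusted p = 1.45e-05, limma), and for Gbp2, at 0.80 ± 0.14 (adjusted p = 1.21e-04, limma), since both fell more without PE. It was negative for Isg15, at -1.87 ± 0.33 (adjusted p = 1.82e-04, limma), Irf7, at -1.18 ± 0.13 (adjusted p = 1.04e-06, limma), Stat2, at -1.03 ± 0.13 (adjusted p = 7.3e-06, limma), and Irf9, at -0.59 ± 0.20 (adjusted p = 0.0191, limma). Irf1, at 0.73 ± 0.32 (adjusted p = 0.0633, limma), did not pass. Of all tested genes, 59% were called in this interaction, 31.1% as positive and 27.9% as negative. Scaling by total reads, which moved the median gene by 1.65, turned Irf7, Irf9 and Stat2 to 0.78, 1.17 and 1.03, and Isg15 became -0.24 and did not pass. Over 21 alternatives the call for Irf9 was lost in 4, among them those without NC replicate 1 or P-ES50 replicate 1. Irf1 gained a call in 6 of the 21. With thinned reads Irf9 passed in 5 of 20 random draws. The mitochondrial share of reads in ES50 moved with the same libraries; its part in the result was not tested.
For 10 pulses, 0 of the 7 genes passed the interaction in limma, and 3 had an unadjusted p under 0.05, with 0.906% of all tested genes called, 0.562% as positive and 0.344% as negative. The estimates were -0.59 for Irf9 (adjusted p = 0.299, limma), -0.45 for Irf7 (adjusted p = 0.165, limma) and -0.40 for Stat2 (adjusted p = 0.296, limma). All 3 were called by voom on the recovered reads and by limma fitted to the 4 compared groups alone, and Irf7 and Irf9 by limma with the ES50 libraries left out or on total reads. Whether the falls of these genes after 10 pulses differ with PE thus depends on the fit.

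Irf3 and Irf7 overlap other genes on the opposite strand, and no label states whether counting used the strand, so reads of each pair cannot be told apart. Irf3 (ENSRNOG00000043388, chromosome 1, 100992405 to 100997198, plus strand, build Rnor 6.0) overlaps Bcl2l12, and Irf7 (ENSRNOG00000017414, chromosome 1, 214248837 to 214252456, minus strand) overlaps Phrf1. Bcl2l12 had changes of -0.0036 and -0.06 where Irf3 fell after 10 pulses without or with PE, and rose as deposited by 0.55 (adjusted p = 2.91e-04, limma) in ES50 against NC, where Irf3 fell. Phrf1 had changes of 0.06 and -0.06 where Irf7 fell after 10 pulses, and fell by 0.60 in ES50 against NC, where Irf7 had 0.41. In these comparisons the partner did not pass in the direction of the member. The other 5 genes lie at chromosome 10, 39109522 to 39116531 (Irf1, ENSRNOG00000008144, plus), chromosome 15, 34282936 to 34288138 (Irf9, ENSRNOG00000019478, plus), chromosome 7, 2691369 to 2707741 (Stat2, ENSRNOG00000031081, plus), chromosome 2, 248276709 to 248293784 (Gbp2, ENSRNOG00000031743, plus) and chromosome 5, 173624310 to 173626248 (Isg15, ENSRNOG00000021802, minus). All 7 are annotated as protein coding.

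A list of 146 other genes of the pathway sets these values in context. Of them, 129 stood on a single row of the table and 79 passed the filter on low values. Several interferon genes had few or no reads: Ifna4, Ifna5, Ifng, Ifnk and Ifnl3 had no reads in any library, and Ifnb1 had 1 read over all 18 libraries. Ifne, a type I interferon gene, had 148 reads over all libraries, at 0.714 ± 0.016 FPKM (SD, n = 3) in NC and 1.31 ± 0.856 in P-ES50, and was listed at 0 in ES50. With so few nuclear reads in ES50, a gene at this level can be listed at 0 from depth alone, so no fall is read from it. The type I receptor was present, with Ifnar1 at 10.2 and Ifnar2 at 9.13 FPKM in NC.
PE alone gave 9 higher and 1 lower of the 79, with a median of 0.13 against 0.00 over all tested genes, of which 4.72% were called higher and 4.81% lower. Among 35 antiviral targets 5 rose and 1 fell, including Ifitm3, a membrane protein that blocks virus entry, at 0.63 ± 0.07 (SE, adjusted p = 4.60e-05, limma), from 94.5 to 146 FPKM, and Parp9, at 0.58. The kinase Ikbke, which phosphorylates IRF3, rose by 0.50, and Tyk2, a kinase of the type I receptor, rose by 0.43. In antigen presentation, 2 of 10 rose, which were B2m, at 0.18, and the peptide transporter Tap1, at 0.35.
Of the 79, 3 rose and 2 fell in ES10 against NC. Among the sensors and adaptors Tmem173 rose by 0.41 and Traf3 by 0.30, and the genes that fell were Parp10, by 0.64, and Dtx3l, by 0.42. Tmem173 was low, at 0.821 ± 0.114 FPKM (SD, n = 3) in NC and 1.41 ± 0.104 in ES10. Its mean reached 1 FPKM only in ES10 and P-ES10. It thus passed the filter on low values only through groups where it was high, and its call is not independent of that filter. The median was -0.15 against 0.02 over all tested genes, of which 6.36% were called higher and 2.21% lower.

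In P-ES10 against P, 9 of the 79 rose and 25 fell, with a median of -0.20 against 0 over all tested genes, of which 13.2% were called higher and 9.66% lower. Antiviral targets had 2 higher and 14 lower of 35, among them Parp10, at -0.74, Sp110, at -0.65, and Ifitm3, which fell by 0.45 to 106 FPKM. Both tested GTPases fell, Igtp by 0.62 and Irgm by 0.47, as did the checkpoint ligand Cd274, by 0.68, and the immunoproteasome subunit Psmb10, by 0.44. Upstream, Ikbke fell by 0.86 and Tyk2 by 0.61, and the receptor chains Ifnar1 and Ifngr1 fell by 0.36 and 0.32. Other signalling genes went the opposite way: Jak1 rose by 0.23, Tbk1 by 0.53, and Tmem173, which encodes the sensor adaptor STING, by 0.63.
In P-ES50 against P, 4 of the 79 rose and 21 fell, with a median of -0.19 against -0.01 over all tested genes, of which 14.1% were called higher and 14.2% lower. Ikbke fell by 0.89, Tyk2 by 0.73, Irf2bpl by 1.02, the chemokine Cxcl10 by 1.07, Igtp by 0.69 and Cd274 by 0.87. Jak1 rose by 0.25 as deposited and had a change of -0.63 on scaling by total reads, where the median gene moved by -0.77. Receptors had 0 higher and 4 lower of 6. Leaving the ES50 libraries out of the fit gave 28 higher and 5 lower of the 79 in P against NC, where 13.8% and 13.1% of all tested genes were called in those directions. In the same fit 9 rose and 20 fell in ES10 against NC (14.3% and 7.34% of all tested genes), 13 and 35 in P-ES10 against P (21% and 18.6%), and 11 and 34 in P-ES50 against P (21.6% and 23.5%).

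In ES50 against NC, 15 of the 79 rose and 41 fell as deposited, with a median of -0.33 against -0.13 over all tested genes, of which 31.9% were called higher and 40.1% lower. On scaling by total reads 0 rose and 79 fell, with 96.3% of all tested genes lower. Ifi27 had a deposited change of 0.95 ± 0.05 (SE, adjusted p = 6.41e-11, limma), from 212 to 410 FPKM, which became -2.57 on total reads. The median gene moved by -2.43 on total reads, where the log2(FPKM + 1) scale understates falls of low genes. Ratios between the genes of a library are the same under both scalings. The place of Ifi27 relative to the median gene is therefore not read from total reads. Of 10 antigen presentation genes 1 rose and 6 fell, among the latter Tapbp, at -1.80, Tap1, at -1.67, and Erap1, at -1.49. Of 35 antiviral targets 10 rose and 14 fell as deposited, with a median of -0.10 against -0.13 over all tested genes. The RNA-editing enzyme Adar was among those that fell, by 1.26. Of 6 interferon and receptor genes 1 rose and 4 fell, among the latter the receptor chains Ifnar2 and Ifngr1, by 1.38 and 1.17. Of 9 signalling genes 1 rose and 7 fell, among the latter the kinase Jak1, by 1.01.

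**Figure D5:**
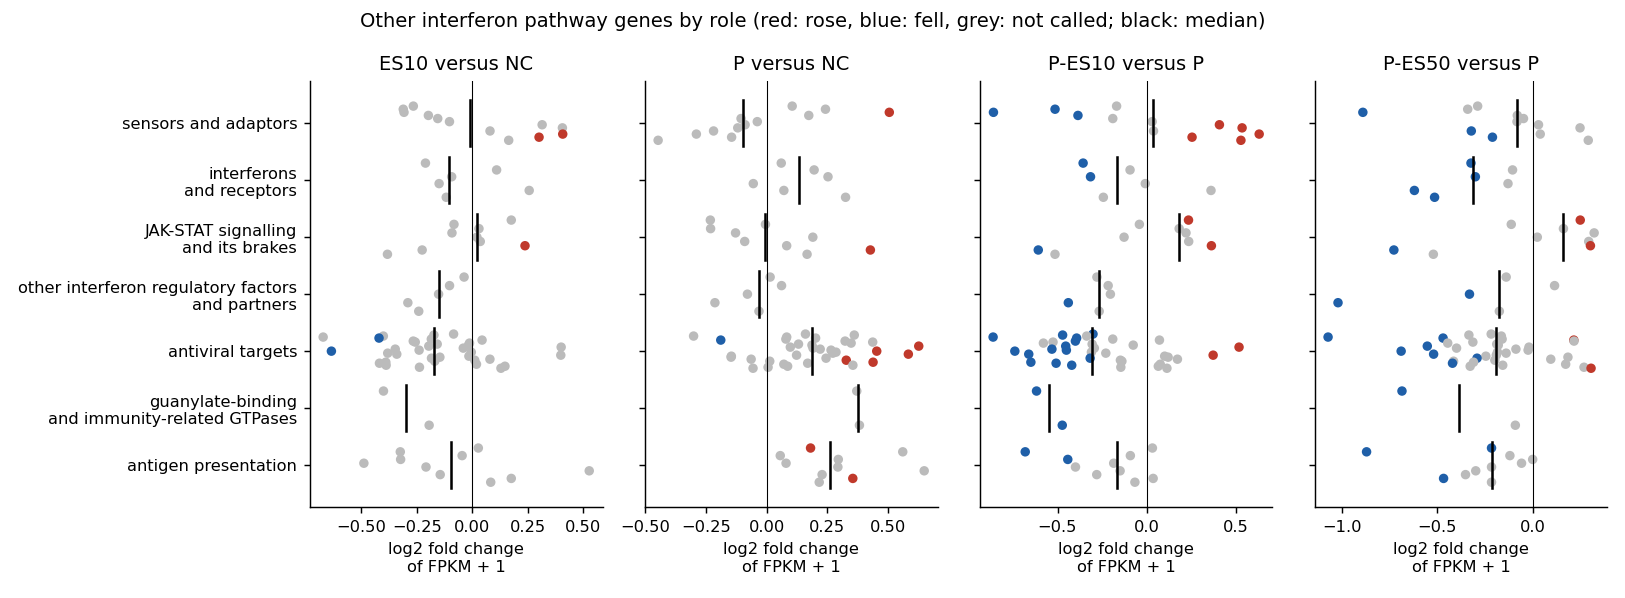
Log2 fold change of FPKM + 1 of the 79 tested genes of the wider interferon list by role, in 4 comparisons. Red points rose and blue points fell in limma, grey points did not pass, and the black bar is the median of the role. In P-ES10 against P 14 of 35 antiviral targets lie in blue and 2 in red, and in P against NC 5 lie in red and 1 in blue.

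The genes most like each member were taken by Pearson's correlation of log2(FPKM + 1) over the 18 libraries, among all tested genes. These libraries come in sets of 3 per group and share the deep difference of ES50, so the values describe the pattern only. Gbp2 was most like Parp14 (r = 0.969), an interferon-inducible ADP-ribosyltransferase, Rnf213 (0.953) and Pla1a (0.952). Irf3 was most like Upp1 (0.983), Neu1 (0.982) and Vps16 (0.982), and Irf1 like Ephb3 (0.981), Rnf145 (0.969) and C1rl (0.964). Mknk2 stood among the nearest genes of both Irf7 (0.955) and Stat2 (0.922), whose nearest was Ehmt2 (0.938). Irf9 was most like Sec14l2 (0.873) and Isg15 most like Zc3h7b (0.956). Over the 15 libraries without ES50, Parp14 again stood nearest to Gbp2 (0.935), while the nearest gene changed for the other 6, to Bcl9l for Irf1 (0.971), Atg16l2 for Irf3 (0.982), Etv4 for Irf7 (0.963), Pced1a for Irf9 (0.934), Cand2 for Stat2 (0.971) and Clcc1 for Isg15 (0.915). For Irf3 the interferon-inducible GTPase gene Igtp was among the 3 nearest in those 15 libraries (0.958).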

How the data were processed

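RNA of 18 H9C2 libraries was measured, with groups of 3 taken from titles and treatments. Libraries were made from poly(A) RNA, per the labels' protocols. The authors deposited FPKM per gene on build Rnor 6.0, per the submitters' processing notes; aligner, counter and strandedness: not given in the sources used here. Multiplied by gene length, the values were whole numbers of a library-specific unit for 100% of genes (tolerance 0.01 read), which recovered 14004929 to 17247201 reads per library. Reads limit precision in ES50, and intervals cover counting error only.

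The 11917 genes that reached an FPKM of 1 in 3 or more libraries were tested as log2(FPKM + 1), a scale that understates changes of low genes, with limma 3.58.1 in R 4.3.3 (1 model of 6 group means, mean-variance trend). P-values were adjusted by Benjamini-Hochberg over all tested genes within each of 9 contrasts, and called under 0.05. The procedure was tested on simulated data. Tables and figures used Python 3.11.15. All 7 members are named; from the wider list up to 3 called genes with the smallest adjusted p per role and contrast are named, with up to 5 genes without reads; Ifnb1, Ifne and the levels of Ifnar1 and Ifnar2 in NC were singled out after their values were seen. 1 gene of the wider list is counted but not reported here by name. The members, the lists and the named-gene rule were chosen with earlier results of these data known. Alternatives covered scaling, pseudocount, filter, libraries in the fit, voom, a replicate block and each library left out. Leaving ES50 out and thinning reads (20 random draws, medians over draws) were added after seeing the data.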

Additional observations from a re-analysis of the deposited data

Results flagged for a closer look

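The change after 50 pulses with PE (P-ES50 against P) differed from that without PE (ES50 against NC) by the interaction test for 6 genes. Irf3 had -0.61 with PE and -1.71 without, a difference of 1.11 (adjusted p = 1.45e-05, limma). Gbp2 had -0.31 with PE and -1.11 without, a difference of 0.80 (adjusted p = 1.21e-04, limma). Irf7 had -0.77 with PE and 0.41 without, a difference of -1.18 (adjusted p = 1.04e-06, limma). Stat2 had -0.50 with PE and 0.53 without, a difference of -1.03 (adjusted p = 7.3e-06, limma). Irf9 had -0.57 with PE and 0.02 without, a difference of -0.59 (adjusted p = 0.0191, limma). This call was lost in 4 of 21 alternatives, among them those without NC replicate 1 or P-ES50 replicate 1. Isg15 had -0.25 with PE and 1.62 without, a difference of -1.87 (adjusted p = 1.82e-04, limma). On scaling by total reads the difference for Isg15 became -0.24 and did not pass, and those for Irf7, Irf9 and Stat2 changed sign. The mitochondrial share of reads was 92.1% in ES50 and 48.6% in P-ES50, and its part in these differences was not tested.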

How the results depend on the processing

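Of the alternative values computed for single members, 953 kept their direction and their side of the threshold, 41 lost the call, 37 gained it and 40 changed sign. Counts of members called moved as follows. In ES10 against NC (3 called) the count was 1 with no filter on low values (Irf7), 0 with reads thinned to the same nuclear depth, and 0 to 2 with 1 library left out. It was 4, with Stat2 added, with total reads, nuclear reads, only the groups compared, voom, or the ES50 libraries left out. In P against NC (2) it was 5 with total reads scaling, quantile normalization, only the groups compared in the fit, voom, or the ES50 libraries left out, 0 with thinned reads (0 to 2 over single draws), and 1 to 2 with 1 library left out. With thinned reads it was 3 in P-ES10 against P (5), namely Irf3, Irf7 and Stat2 (2 to 5 over draws), and 4 in P-ES50 against P (6), namely Irf1, Irf3, Irf7 and Stat2 (1 to 5 over draws); fewer reads are that setting's own construction. With total reads scaling it was 6 in P-ES50 against P-ES10 (1), where 10403 of 11917 tested genes were called. In the interaction of PE and 10 pulses (0) it was 2 with total reads scaling or the ES50 libraries left out (Irf7 and Irf9), and 3 with only the groups compared or voom. In the interaction of PE and 50 pulses (6) it was 5 to 7 with 1 library left out, and 3 to 7 over single draws of thinned reads.

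Total reads scaling moved the median gene by -2.43 in ES50 against NC, 0.11 in P against NC, -0.77 in P-ES50 against P and 1.65 in the interaction with 50 pulses. It turned ES50 against NC to -2.36 for Irf7, -2.57 for Irf9, -2.37 for Stat2 and -0.54 for Isg15, and ES50 against ES10 to -1.92, -2.46, -2.06 and -0.21. It turned P-ES50 against P-ES10 to -0.73 for Irf3, -0.62 for Irf7, -0.61 for Irf9, -0.56 for Stat2, -0.72 for Gbp2 and -0.24 for Isg15, and the interaction with 50 pulses to 0.78 for Irf7, 1.17 for Irf9 and 1.03 for Stat2. Changes that were not called also turned. Irf1 in ES10 against NC was -0.025 with total reads, -0.078 with nuclear reads and -0.034 with quantile normalization. Irf9 in ES50 against NC was -0.045 with nuclear reads, Gbp2 in the interaction with 10 pulses was -0.042 with total reads, and Irf3 in P-ES50 against P-ES10 was -0.021 with thinned reads.

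Leaving out 1 library turned the sign of changes that were not called and of no called change. Irf1 in ES10 against NC ranged from -0.023 to 0.039, and Irf9 from -0.16 to 0.12 in ES50 against NC and from -0.089 to 0.19 in ES50 against ES10. In P-ES50 against P-ES10 the range was -0.017 to 0.099 for Irf3, -0.00053 to 0.16 for Irf7, -0.045 to 0.18 for Irf9, -0.021 to 0.12 for Gbp2 and -0.043 to 0.37 for Isg15. In the interaction with 10 pulses it was -0.075 to 0.068 for Gbp2 and -0.26 to 0.0028 for Isg15. Over all tested genes, called counts ranged over the alternatives other than single libraries from 232 (thinned) to 2834 (voom) in ES10 against NC (1021), 220 to 3533 in P against NC (1136), 944 to 5090 in P-ES10 against P (2724), and 26 to 788 in the interaction with 10 pulses (108). They ranged from 1242 (thinned) to 10551 (total reads) in P-ES50 against P (3370), 993 to 10403 in P-ES50 against P-ES10 (2784), and 4631 to 10588 in the interaction with 50 pulses (7036). The share of calls that were higher went from 74.2% to 37.8% in ES10 against NC and from 57.7% to 39.0% in P-ES10 against P with nuclear reads, and from 49.6% to 81.3% in P against NC with total reads. The deviations of same-numbered libraries had correlations of -0.0879 to 0.101 over 21 pairs of libraries. These values cannot tell whether the numbers pair cultures, which the labels do not state. With the replicate block, the paired fit, the counts in the 9 contrasts were 3, 6, 6, 2, 5, 6, 1, 0 and 6, as without it. The few nuclear reads of ES50 limit all members there, most of all Isg15, Gbp2, Irf9 and Irf1, with 47, 71, 75 and 79 reads over its 3 libraries. Where no cause is named, the cause was not tested.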
